A study of Homo sapiens with 6 samples.

Results

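The cathepsin protease family was followed here through 10 genes, CTSA, CTSB, CTSC, CTSD, CTSH, CTSK, CTSL, CTSS, CTSV and CTSZ. They were taken by gene name, with every probe set that the platform annotation assigned to a single gene, that gene being a family member. This gave 20 probe sets of the 54613 tested and 10 of the 19777 genes tested. Messenger RNA had been measured on 6 one-colour oligonucleotide arrays of MDA-MB-231, an established human breast cancer cell line. The 3 control arrays came from cells transfected with a non-targeting siRNA, and the 3 other arrays from cells transfected with a single siRNA against ING2, a chromatin reader that belongs to a SIN3 histone deacetylase complex. Both groups used the same line, and the labels set RNA collection at day 4 in one protocol and at day 3 in another. Nothing in the labels shows that replicates were grown apart, so the p-values describe the spread between these arrays, which may be technical.

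Cathepsins are the main proteases of the lysosome. They are made as inactive precursors, receive mannose 6-phosphate in the Golgi, are carried to late endosomes by mannose 6-phosphate receptors and are activated in the acid interior, while cystatins inhibit the cysteine cathepsins outside it. Most members use a cysteine in the active site, CTSD uses aspartate and CTSA uses serine. In breast tumours they are known for turnover of matrix and basement membrane when secreted, and for protein breakdown inside the cell.

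Promoter sequences of 7 members were read from RefSeq (GRCh38.p14), from 250 bases before to 50 bases after a start that the table sets. For 6 of the 7 that start is the outer end of the annotated gene, and for CTSV it lies 501 bases inside it. CTSL and CTSV, close paralogs that lie on chromosome 9, are shown because both had lower values on all 3 ING2 siRNA arrays and because their promoters share a stretch. The windows are chr9:87725869-87726168 on the plus strand for CTSL and chr9:97039093-97039392 on the minus strand for CTSV, and capitals mark the longest run of identical bases.
CTSL: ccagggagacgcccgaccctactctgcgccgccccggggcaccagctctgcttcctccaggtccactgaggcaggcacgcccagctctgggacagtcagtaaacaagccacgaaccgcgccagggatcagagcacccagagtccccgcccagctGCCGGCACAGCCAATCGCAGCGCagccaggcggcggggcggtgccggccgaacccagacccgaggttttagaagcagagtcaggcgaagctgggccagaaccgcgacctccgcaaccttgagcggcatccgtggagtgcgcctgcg
CTSV: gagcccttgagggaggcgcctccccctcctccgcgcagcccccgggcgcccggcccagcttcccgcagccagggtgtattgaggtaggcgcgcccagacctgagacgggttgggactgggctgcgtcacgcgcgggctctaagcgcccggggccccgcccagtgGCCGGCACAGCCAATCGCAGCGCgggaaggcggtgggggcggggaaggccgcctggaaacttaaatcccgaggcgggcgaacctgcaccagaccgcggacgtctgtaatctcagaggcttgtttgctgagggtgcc
The run is 23 bases long and holds a CCAAT box. It begins 96 bases before the start of CTSL and 86 bases before the start used for CTSV, so that in CTSV it lies within the gene as annotated. Of 35116 promoters, 2 held it on either strand (0.0057%), and these are CTSL and CTSV themselves, from which the run was taken. In the other 20 pairs of member promoters the longest shared run was 8 to 13 bases. The letters CCAAT, searched on both strands, occur in 34.6% of all promoters, and among the 7 members in those of CTSC, CTSL and CTSV.

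CTSA and CTSD are shown for a motif of lysosomal genes. Their promoters lie at chr20:45891085-45891384 on the plus strand and at chr11:1763878-1764177 on the minus strand, and capitals mark the E-box CACGTG, the centre of the CLEAR element that TFEB and TFE3 bind (the E-box with GT before it and AC after it).
CTSA: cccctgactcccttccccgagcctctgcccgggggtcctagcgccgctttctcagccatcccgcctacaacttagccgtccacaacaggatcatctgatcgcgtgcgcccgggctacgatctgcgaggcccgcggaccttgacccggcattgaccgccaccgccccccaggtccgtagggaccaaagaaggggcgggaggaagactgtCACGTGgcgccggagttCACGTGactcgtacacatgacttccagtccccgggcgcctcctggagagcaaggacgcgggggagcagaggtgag
CTSD: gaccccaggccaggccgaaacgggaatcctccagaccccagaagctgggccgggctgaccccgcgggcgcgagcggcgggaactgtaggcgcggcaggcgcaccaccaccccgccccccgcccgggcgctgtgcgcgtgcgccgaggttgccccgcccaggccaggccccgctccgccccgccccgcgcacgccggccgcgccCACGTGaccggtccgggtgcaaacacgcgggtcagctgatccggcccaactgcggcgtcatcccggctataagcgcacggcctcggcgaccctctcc
CTSA holds 2 E-boxes, starting 42 and 25 bases before its start, and CTSD holds 1, starting 47 bases before. Among all promoters 7.26% hold the letters CACGTG, which read the same on both strands. The longer letters TCACGTG, searched on both strands and always overlapping an E-box, occur in 3.71% of promoters and in both genes. The whole CLEAR element of 10 bases occurs in 0.353% of promoters and in none of the 7. Its best match was 9 of 10 bases in CTSA and 8 of 10 in CTSD. In CTSC, CTSH, CTSL, CTSV and CTSZ, whose promoters hold no E-box, the best match was 7 of 10. A match of letters is a description of the sequence and not a measured binding site.

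ING2 itself fell, which checks the labels. Its probe set 205981_s_at read 1400, 1349 and 1324 units in controls and 163, 188 and 161 units after ING2 siRNA, or 12.5% of the control level. The dimmer 213544_at read 73.1, 111 and 93.7 units against 34.6, 40.1 and 26.8, or 36.5% of control. Median intensity per array was 75.6 to 81.4 units. The log2 difference between the 3' and 5' probe sets of GAPDH, a sign of RNA integrity, was 0.205 ± 0.015 in controls against 0.316 ± 0.042 with ING2 siRNA (n = 3, SD; two-sided exact permutation p = 0.1), and its part in the values below was not tested. Over all genes, 3.62% passed as higher and 4.67% as lower, 8.29% in all (limma, Benjamini-Hochberg adjusted p under 0.05 over 19777 genes). After cyclic loess 5.73% and after quantile normalization 7.92% passed in either direction. The split moved with scaling, from 716 higher and 924 lower in the deposited values to 944 and 623 after quantile normalization and 260 and 1450 after median centring. Without control replicate 2 or 3, or without ING2 siRNA replicate 1 or 3, only 2 or 3 genes in all passed, and none of the gene calls given below for cathepsins or related genes held in those 4 fits. Markers of the line were bright, with summed intensity of VIM, CD44, CAV1, AXL, LGALS1 and MSN at 63218 to 64218 units in controls and 59034 to 61768 after ING2 siRNA. Of these, 0 of 6 passed in limma (1 at an unadjusted p under 0.05, beside 32.9% of all genes). Of 7 luminal breast markers EPCAM fell by 0.95 and 0 rose, though 5 had values above 0 (median 0.08). After quantile normalization, and after cyclic loess, 1 luminal marker passed as higher and 1 as lower. Of 6 fibroblast markers DCN and PDPN rose and LUM fell. Among those fibroblast markers LUM alone passed after median centring, quantile normalization or cyclic loess. In bulk RNA, fewer cells of a kind and less RNA per cell cannot be told apart.

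Of the 10 cathepsin genes, 1 fell and 0 rose when each gene was read through its brightest probe set (limma adjusted p over all genes). At an unadjusted p under 0.05 there were 4, with CTSC, CTSL and CTSV lower and CTSA higher, where 32.9% of all genes were under that value. Of the 20 probe sets, 3 fell and 0 rose in the fit over all probe sets, in which 3.64% of probe sets passed as lower and 1.64% as higher. The 3 were CTSC 225647_s_at, CTSS 202902_s_at and CTSV 210074_at, and at an unadjusted p under 0.05 there were 7, of which CTSA alone was higher, where 28% of all probe sets were under that value. Groups did not overlap in 6 lower and 2 higher probe sets of the family, against 12.3% lower and 20.5% higher among all probe sets. The median change over the 20 probe sets was -0.03 on the log2 scale, beside 0.07 over all probe sets, and over the 10 genes it was -0.01, beside 0.06 over all genes. Probe sets of 1 gene share its transcripts, so they are not separate observations, and those ending in _s_at or _x_at may match several transcripts or related genes.

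**Figure D1:**
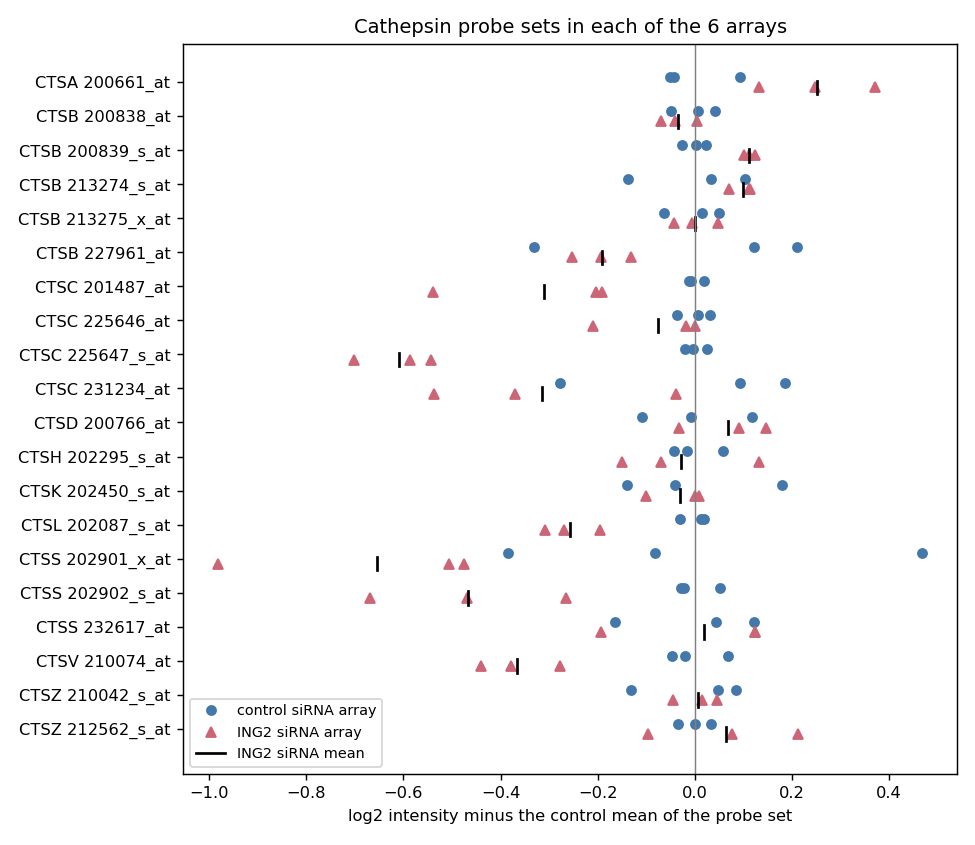
Log2 intensity of each cathepsin probe set in each array (x axis, relative to the mean of the 3 control arrays of that probe set); circles are control siRNA arrays, triangles ING2 siRNA arrays and the bar the mean of the triangles. The ING2 siRNA arrays lie clear of the controls to the left in 6 probe sets (CTSC 201487_at and 225647_s_at, CTSL, CTSS 202901_x_at and 202902_s_at, and CTSV), and to the right for CTSA and CTSB 200839_s_at.

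CTSC had the fall that held under most alternatives, but in 1 of its 4 probe sets. CTSC, or dipeptidyl peptidase I, removes pairs of residues from the start of proteins and activates the granule serine proteases of immune cells. Probe set 225647_s_at read 761, 737 and 746 units in controls and 498, 513 and 460 units after ING2 siRNA. All 3 ING2 siRNA arrays lay far below the controls, at 65.5% of the control level. The log2 change was -0.61 (SE 0.09, 95% interval -0.80 to -0.42, 3 arrays a group, limma adjusted p = 0.00808 over all probe sets). It passed after quantile normalization (adjusted p = 0.0163) and cyclic loess (0.0102), and in 5 of 6 fits that left out 1 array. Without ING2 siRNA replicate 3 the change was -0.56 (adjusted p = 0.0541).

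The other CTSC probe sets had smaller differences. Probe set 201487_at, the brightest, read 1404, 1375 and 1379 units in controls and 1214, 1204 and 954 units after ING2 siRNA. The log2 change of -0.31 did not pass (limma adjusted p = 0.106). Its groups did not overlap, and ING2 siRNA replicate 3 stood lowest. Probe set 225646_at read 784, 760 and 798 units against 781, 771 and 675, with overlapping groups and a log2 change of -0.08. The dimmer 231234_at read 107, 147 and 138 units against 89.1, 126 and 100, also overlapping, with a change of -0.32 (SE 0.15, limma adjusted p = 0.206).

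Set against each other within an array, the CTSC probe sets gave unequal shifts, none of which passed an exact test at this number of arrays. The log2 difference of 225647_s_at from 225646_at was -0.06 ± 0.03 in controls and -0.60 ± 0.05 with ING2 siRNA (n = 3, SD), a shift of -0.53 with no overlap between groups. From 201487_at the shift was -0.30, also with no overlap, and from 231234_at it was -0.29 with overlapping values. Between 201487_at and 225646_at the shift was -0.24. All 9 pairs of probe sets within CTSC and within CTSS were compared, a choice made after the values had been seen. The exact two-sided permutation p was 0.1 in 5 of the 9 pairs, the smallest that this number of arrays allows, and 0.18 after Benjamini-Hochberg adjustment over the 9. With the 4 probe sets averaged, CTSC fell by 0.33 on the log2 scale (limma adjusted p = 0.0312 over all genes).

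In CTSS, too, 1 probe set passed and the others did not. CTSS is a cysteine endopeptidase that stays active at neutral pH and cuts the invariant chain CD74 in cells that present antigen. Probe set 202902_s_at read 603, 639 and 606 units in controls and 512, 445 and 388 units after ING2 siRNA, 72.3% of control. The controls lay close together and above every ING2 siRNA array, with a log2 change of -0.47 (SE 0.11, 3 arrays a group, limma adjusted p = 0.0431 over all probe sets). The call was lost after quantile normalization (adjusted p = 0.0910) and cyclic loess (0.0678) and held in 1 of 6 fits without 1 array, that without ING2 siRNA replicate 1.

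The brightest CTSS probe set, 232617_at, which stood for the gene, read 647, 789 and 748 units against 790, 791 and 635, with overlapping groups and a change of 0.02. The dim 202901_x_at read 61.8, 76.2 and 112 units against 40.9, 56.9 and 58.0, with a change of -0.65 (SE 0.21), short of the threshold (limma adjusted p = 0.0870). Its controls were widely spread and lay above the ING2 siRNA arrays. Within arrays, 202902_s_at shifted by -0.49 and 202901_x_at by -0.67 against 232617_at, with no overlap between groups, while 202901_x_at shifted by -0.19 against 202902_s_at, with overlap. At the level of the gene the value therefore turned with the choice of probe set, from 0.02 with the brightest to -0.47 with the one of largest interquartile range (limma adjusted p = 0.0263) and -0.37 with their mean (0.0363).

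CTSS and CTSC are abundant in blood cells, so markers of those cells were read beside them. Of 8 blood and macrophage markers measured, LYZ fell and none rose, though 5 had values above 0 (median 0.06). Over all genes 61.7% had values above 0, and after quantile normalization the median of the list was -0.05. The summed intensity of the list was 851 to 885 units in controls and 817 to 959 after ING2 siRNA. PTPRC, the defining leukocyte marker, had a geometric mean of 17.1 units in controls and 100% of that after ING2 siRNA, at percentile 8.53 of genes by intensity. LYZ went from 47.5 to 33.3 units (log2 -0.51, limma adjusted p = 0.0487). The part of such cells in the CTSS and CTSC values was not tested.

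**Figure D2:**
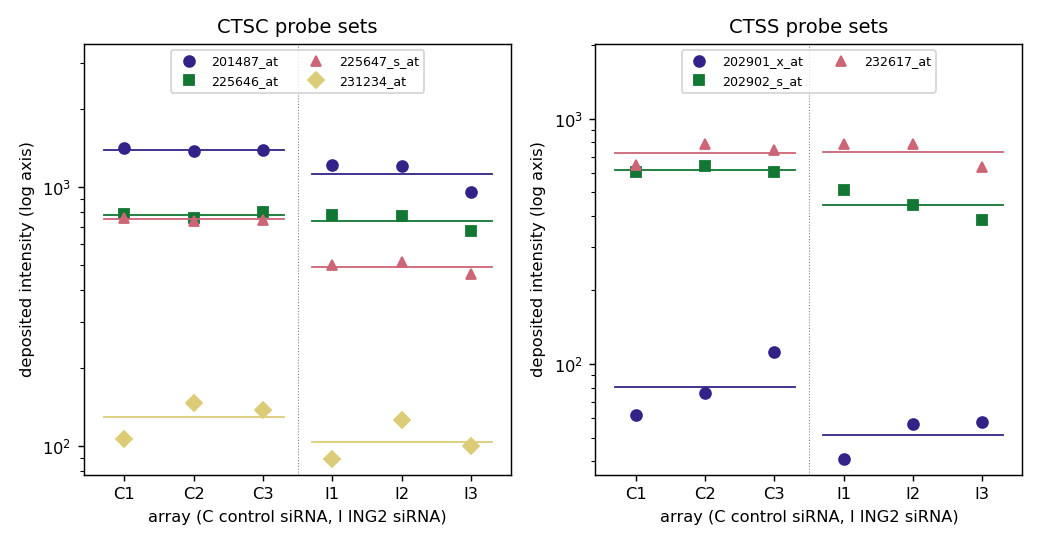
Deposited intensity (log axis) of the 4 CTSC and the 3 CTSS probe sets in each array, with C for control siRNA and I for ING2 siRNA; lines are geometric means of the 3 arrays. In CTSC, 225647_s_at drops to 65.5% of control while the groups of 225646_at overlap, and in CTSS 202902_s_at drops to 72.3% while the groups of 232617_at overlap.

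CTSV fell and its paralog CTSL had a lower value that did not pass. Both are cysteine endopeptidases of the lysosome: CTSL is found in nearly all cells, and CTSV is best known in thymus, testis and cornea. CTSV, with the single probe set 210074_at, read 459, 424 and 432 units in controls and 361, 323 and 337 units after ING2 siRNA. The groups did not overlap, and the level was 77.6% of control, a log2 change of -0.37 (SE 0.08, 3 arrays a group, limma adjusted p = 0.0339 over all genes and 0.0457 over all probe sets). The gene call was lost after quantile normalization (-0.27, adjusted p = 0.0830) and cyclic loess (-0.33, 0.0539). It was also lost without control replicate 2 (0.101), control replicate 3 (0.101), ING2 siRNA replicate 1 (0.0717) or ING2 siRNA replicate 3 (0.124).

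CTSL, probe set 202087_s_at, read 3910, 3893 and 3775 units in controls and 3372, 3203 and 3114 units after ING2 siRNA. Every ING2 siRNA array lay below every control, at 83.7% of the control level, with a log2 change of -0.26 (SE 0.08, limma adjusted p = 0.0617 over all genes). CTSL passed as lower after median centring (-0.33, adjusted p = 0.0351) and had a value of -0.12 after quantile normalization (0.336). Within each array the log2 difference of CTSV from CTSL was -3.14 ± 0.06 in controls and -3.25 ± 0.06 with ING2 siRNA (n = 3, SD). That is a further shift of CTSV by -0.11, with an exact two-sided permutation p of 0.1, and -0.18 after cyclic loess. The groups did not overlap but nearly met, at -3.200 in control replicate 2 and -3.208 in ING2 siRNA replicate 3.

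The genes most like CTSV over the 6 arrays by Pearson correlation were RRAGA (0.995), ENTPD3-AS1 (0.993) and RUFY1 (0.990). Their own log2 changes were -0.17, -0.26 and -0.19. In all, 93 genes had a correlation above 0.95 with CTSV, and with 6 arrays in separated groups such values describe only a shared order of the arrays.

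CTSA had the highest change of the family and did not pass. CTSA is a serine carboxypeptidase, also called protective protein, that stabilises beta-galactosidase and neuraminidase in a lysosomal complex. Its probe set 200661_at read 4811, 4354 and 4376 units in controls and 4940, 5354 and 5833 units after ING2 siRNA. The groups lay apart, but ING2 siRNA replicate 1 was close to control replicate 1. The level was 119% of control, a log2 change of 0.25 (SE 0.09, limma adjusted p = 0.0937 over all genes), and it passed as higher after quantile normalization (0.37, adjusted p = 0.0433) but not after cyclic loess (0.36, 0.0529). NEU1, its partner in the complex, had a value of 0.11 (limma adjusted p = 0.342).

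CTSD, the aspartic cathepsin and a known marker of breast tumours, read 4685, 4005 and 4300 units in controls and 4222, 4602 and 4783 units after ING2 siRNA. The groups overlapped, with a log2 change of 0.07 (95% interval -0.15 to 0.28 over all probe sets). After median centring the value of CTSD was -0.0034.

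CTSB, a cysteine protease that also trims dipeptides from the end of proteins, had 5 probe sets and none passed. The brightest, 200839_s_at, read 6359, 6142 and 6267 units in controls and 6755, 6812 and 6706 units after ING2 siRNA, so that the change was 0.11 (log2, SE 0.07, limma adjusted p = 0.311 over all genes). Its groups did not overlap. The other 4 had overlapping groups and log2 changes of -0.19 (227961_at, where control replicate 2 stood low at 595 units against 814 and 865), -0.04 (200838_at), -0.00010 (213275_x_at) and 0.10 (213274_s_at).

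The exopeptidases CTSH and CTSZ, and CTSK, the collagen-cutting cathepsin of osteoclasts, did not pass either. CTSH, an aminopeptidase, read 3696, 3512 and 3445 units in controls and 3890, 3382 and 3197 units after ING2 siRNA, so that the ING2 siRNA arrays lay on both sides of the controls (log2 -0.03). CTSZ, a carboxypeptidase also called cathepsin X, read 992, 967 and 854 units against 907, 945 and 966 in its brighter probe set 210042_s_at, a change of 0.0054. Its dimmer probe set 212562_s_at read 176, 172 and 168 units against 200, 182 and 161, a change of 0.06. CTSK read 159, 198 and 170 units against 175, 163 and 176, with a change of -0.03. The 95% intervals of these 4 probe sets over all probe sets ran from -0.25 to 0.19 for CTSH, from -0.20 to 0.21 and from -0.16 to 0.28 for CTSZ, and from -0.26 to 0.20 for CTSK. CTSK lies next to CTSS on chromosome 1, with no other protein-coding gene between them.

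Brightness moved with the change across all probe sets. When probe sets were sorted by intensity into 10 even classes, their median change (log2) reached 0.12 among the dimmer classes and was -0.10 in the brightest. Of the 20 cathepsin probe sets, 8 lay in the brightest class and 19 at or above the median intensity. Relative to the median of its class, CTSC 225647_s_at was at -0.54 (log2), CTSS 202902_s_at at -0.40 and CTSV at -0.35. Of probe sets that did not pass, CTSS 202901_x_at was at -0.77, the lowest of the family, and CTSC 231234_at at -0.42. CTSL was at -0.16 and CTSA at 0.35 on the same scale.

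**Figure D3:**
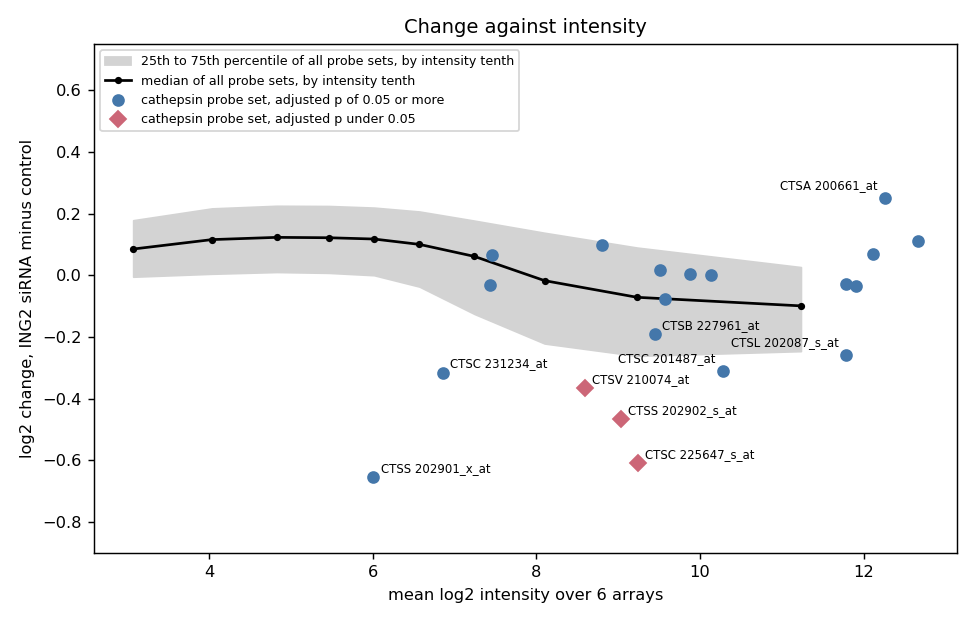
Log2 change after ING2 siRNA (y axis) against mean log2 intensity over the 6 arrays (x axis) for the 20 cathepsin probe sets; the line is the median of all probe sets in each of 10 intensity classes and the band their 25th to 75th percentile. CTSC 225647_s_at (-0.61), CTSS 202902_s_at (-0.47) and CTSV (-0.37), drawn as diamonds, lie below the band, and CTSA (0.25) lies higher than the band at its bright end. CTSS 202901_x_at (-0.65), CTSC 231234_at (-0.32) and CTSC 201487_at (-0.31), which did not pass, lie below the band too. Against the bright end of the band CTSL (-0.26) is just lower, and CTSB 200839_s_at (0.11) and CTSD (0.07) are higher.

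**Figure D4:**
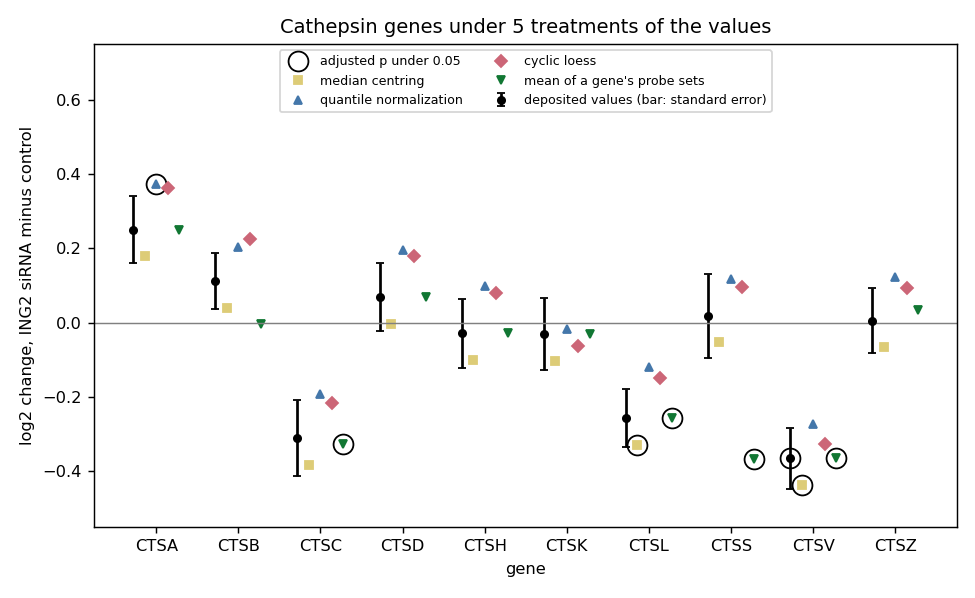
Log2 change of each cathepsin gene (y axis) in the deposited values, after 3 ways of scaling, and with the probe sets of a gene averaged; bars on the deposited values are standard errors from limma and rings mark adjusted p under 0.05. CTSV, CTSL, CTSC and CTSK stay below 0 in all 5 settings and CTSA above it, while CTSB, CTSD, CTSH, CTSS and CTSZ cross 0.

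Among the 5 cathepsin genes outside the family list above, CTSO fell and none rose. CTSO, a little-studied cysteine cathepsin, read 398, 382 and 385 units in controls and 294, 298 and 324 units after ING2 siRNA, 78.5% of control. The groups lay apart, with a log2 change of -0.35 (SE 0.08, limma adjusted p = 0.0348), and it passed after cyclic loess (adjusted p = 0.0489) but not after quantile normalization (0.0723). CTSG (0.35, limma adjusted p = 0.0598), CTSW (0.26) and CTSE (0.18), which are proteases of blood cells and stomach, had values above 0 at low intensity, and CTSF had a value of -0.07.

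Of 13 inhibitors, 1 rose and 1 fell, and 11 had a value above 0, where 61.7% of all genes did. CST1, a secreted cystatin, read 726, 813 and 781 units in controls and 944, 947 and 968 units after ING2 siRNA. It rose by 0.30 (log2, SE 0.08, limma adjusted p = 0.0477) and passed after quantile normalization (0.0276) and cyclic loess (0.0310) but not after median centring (0.23, adjusted p = 0.106). CST1, CST2 and CST4 are close copies and their probe sets may share signal. CST7, or cystatin F, which inhibits CTSC, read 2042, 1792 and 1998 units in controls and 1581, 1475 and 1490 units after ING2 siRNA, 78.0% of control. The change of -0.36 (log2, SE 0.08, limma adjusted p = 0.0366) did not pass after cyclic loess (0.104). CST3, or cystatin C, the main secreted inhibitor, had a value of 0.32 (limma adjusted p = 0.0656) in its brightest probe set and values below 0 in the other 2. The median of the inhibitors was 0.19, beside 0.06 over all genes. It was 0.11 after quantile normalization and 0.12 after cyclic loess, beside 0.06 and 0.03 over all genes. The list holds dim genes, such as CSTA at 10.4 units in controls, and dimmer probe sets tended to higher values over the whole array.

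In the route to the lysosome, 0 of 19 sorting genes rose and 3 fell. M6PR, the cation-dependent mannose 6-phosphate receptor that carries cathepsin precursors, read 585, 507 and 464 units in controls and 369, 335 and 323 units after ING2 siRNA. The groups lay apart, at 66.2% of control, and the change of -0.59 (log2, SE 0.10, limma adjusted p = 0.0212) passed after quantile normalization (0.0308) and cyclic loess (0.0224) too. SNX2, a sorting nexin of the retromer, fell by 0.47 (limma adjusted p = 0.0320). MCFD2, a subunit of a cargo receptor for export from the endoplasmic reticulum, fell by 0.40 (limma adjusted p = 0.0267). Both were just short of the threshold after cyclic loess (0.0504 and 0.0515). IGF2R, the other mannose 6-phosphate receptor, was at 0.13 (limma adjusted p = 0.464). At an unadjusted p under 0.05 there were 6 of the 19 sorting genes, where 32.9% of all genes were under that value. The median over all 19 was -0.02. GGA1, an adaptor of the receptors, was at 0.30 (limma adjusted p = 0.0638) and passed as higher after quantile normalization (0.0326).

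Of 15 subunits of the V-ATPase, the proton pump that acidifies lysosomes, 0 rose and 2 fell, with a median of -0.06. At an unadjusted p under 0.05 there were 7, where 32.9% of all genes were under that value. ATP6V1C1 fell by 0.45 (SE 0.10, limma adjusted p = 0.0305; 0.0444 after cyclic loess) and the accessory subunit ATP6AP2 fell by 0.45 (SE 0.10, limma adjusted p = 0.0360; 0.0669 after cyclic loess). All 4 probe sets of ATP6V1C1 and all 3 of ATP6AP2 had values below 0. After quantile normalization the subunits turned to 3 higher and 0 lower, where 944 of all genes passed as higher and 623 as lower. Among 6 processing enzymes and partners, 0 passed in limma (2 at an unadjusted p under 0.05, beside 32.9% of all genes). The lowest p belonged to LGMN, or legumain, which cleaves cathepsin precursors, at -0.28 (limma adjusted p = 0.0917), and to heparanase HPSE, a substrate of CTSL, at -0.22 (0.137).

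Other lysosomal hydrolases gave 1 rise and 1 fall among 22, with a median of 0.06. ARSB, an arylsulfatase of glycosaminoglycan breakdown, rose by 0.38 from 58.1 units (limma adjusted p = 0.0450), with 1 of its 4 probe sets below 0. The serine carboxypeptidase SCPEP1 fell by 0.31 (limma adjusted p = 0.0392), with 1 of 2 probe sets below 0. Neither passed after cyclic loess (0.0897 and 0.109). Of 11 genes of the lysosomal membrane and lipid transport, 1 rose and 1 fell (median -0.02). CTNS, the cystine exporter, read 625, 564 and 547 units in controls and 699, 762 and 823 units after ING2 siRNA, with no overlap. It rose by 0.39 (SE 0.09, limma adjusted p = 0.0360), and passed after quantile normalization (0.0264) and cyclic loess (0.0288) but not after median centring (0.32, adjusted p = 0.0586). LAPTM4A fell by 0.33 (limma adjusted p = 0.0466; 0.125 after cyclic loess).

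Among 16 regulators of lysosomal genes and of the mTORC1 nutrient signal, 0 rose and 1 fell. LAMTOR3, a scaffold of mTORC1 on the lysosome, fell by 0.40 (limma adjusted p = 0.0492; 0.0971 after cyclic loess). TFEB (0.08), TFE3 (0.17) and MITF (-0.33) did not pass in limma. Of 12 substrates, 0 passed in limma (2 at an unadjusted p under 0.05, beside 32.9% of all genes). COL1A1 (0.23) and ELANE (0.26), a neutrophil protease that CTSC activates and that read 16.2 to 21.6 units in controls, had the smallest p, and CD74 had a value of 0.10. Over the 9 lists, 3 of 119 genes rose (2.52%) and 10 fell (8.40%), beside 3.62% and 4.67% of all genes. After quantile normalization 12 rose and 1 fell, where 944 and 623 of all genes did.

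**Figure D5:**
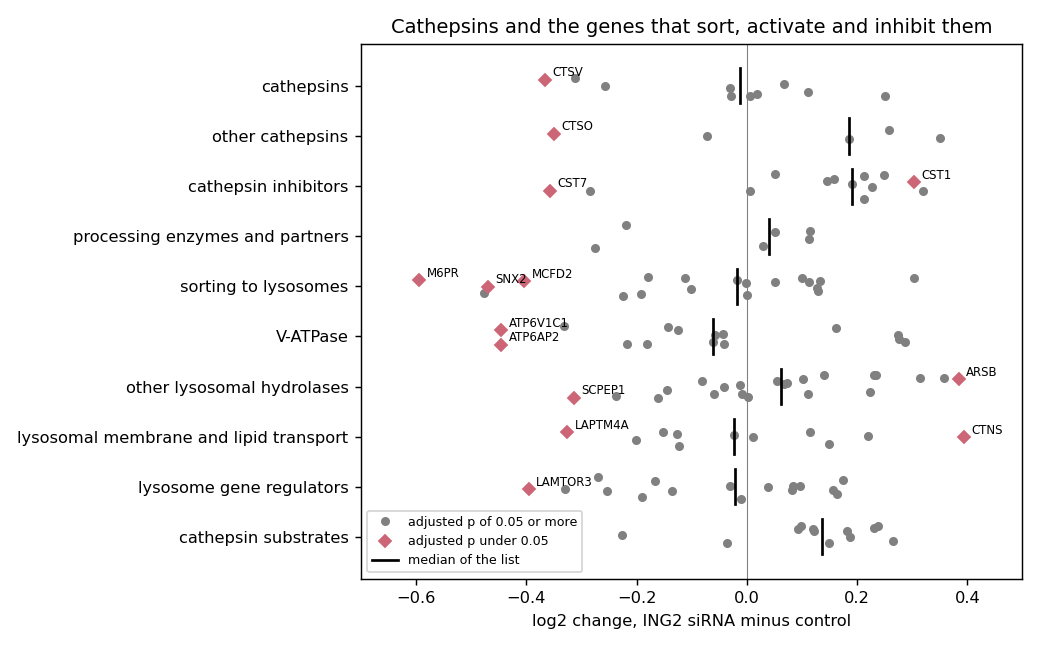
Log2 change after ING2 siRNA of each measured gene (points, x axis) in the 10 cathepsins and in 9 lists of related genes; diamonds passed limma at adjusted p under 0.05 and bars are list medians. M6PR at -0.59 is the lowest point of the panel and CTNS at 0.39 the highest.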

How the data were processed

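The authors deposited a table of linear probe set intensity values for 6 arrays. The submitters' processing notes name RMA and R 2.12. Not given in the sources used here are how linear values were obtained and which background correction or filter was used. The log2 of each intensity was taken with no pseudocount, and 62 control probe sets were left out. Genes were named through the platform annotation, with symbols updated by gene identifier to RefSeq, and a gene was read through its probe set with the highest mean. Groups were compared with limma 3.58.1 in R 4.3.3 (lmFit and eBayes, ING2 siRNA minus control, no covariate), fitted over all 19777 genes and separately over all 54613 probe sets. A Benjamini-Hochberg adjusted p under 0.05 in that fit counts as a rise or fall. Single values were compared by an exact two-sided permutation test. The method was tested on simulated data with log2 changes of 0.5 and 1, and smaller changes were not tested there. Members and lists were chosen with earlier results of these data known. All cathepsins are named, and in each other list the genes past the threshold, up to 3 in each direction, or else the 2 with the smallest p. Outside that rule, NEU1, IGF2R, GGA1, TFEB, TFE3, MITF, CD74, CST3, PTPRC and the within-gene pairs were named after their values were seen. Some genes of the lists were not analysed here, and counts are over the genes measured. With 3 arrays a group, precision is limited. Alternatives were other scalings, leaving out dim probe sets (below quantile 0.25 of the mean), other probe set rules, moderation with a trend or array weights, a replicate block, other thresholds and leaving out each array. Protein sequences were not used here.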

Additional observations from a re-analysis of the deposited data

How the results depend on the processing

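The fall of CTSC 225647_s_at kept its direction and passed under every alternative run on probe sets except without ING2 siRNA replicate 3. The count of cathepsin genes lower, 1 in the deposited values, was 0 after quantile normalization, after cyclic loess and at adjusted p under 0.01, 2 after median centring and with an intensity trend, 3 with array weights, by the most variable probe set and at adjusted p under 0.1, and 4 with the mean of probe sets. Over all genes the lower calls, 924 in the deposited values, were 623 after quantile normalization and 686 after cyclic loess. They were 1450 after median centring, 1436 with an intensity trend, 1931 with array weights, 1953 by the most variable probe set and 1391 with the mean. The count of cathepsin genes higher, 0 in the deposited values, was 1 (CTSA) after quantile normalization, with an intensity trend, with array weights and at adjusted p under 0.1. Over all genes the higher calls, 716 in the deposited values, were 944, 971 and 1927 in the first 3 of these settings. Without 1 array, 0 to 1 cathepsin genes were lower and 0 higher, where all genes gave 2 to 1631 lower and 0 to 1227 higher. Of probe sets, 3 were lower, against 1 after quantile normalization and after cyclic loess and 0 to 2 without 1 array. The matching counts over all probe sets are not given here, nor those over all genes at the other thresholds. Of the related genes, 3 were higher, against 0 after median centring, 12 after quantile normalization, 5 after cyclic loess, 9 by the most variable probe set and 0 to 7 without 1 array. Those lower numbered 10. They were 1 after quantile normalization, 3 after cyclic loess, 24 by the most variable probe set and 0 to 12 without 1 array. Higher calls over all genes were 260 after median centring and 944 after quantile normalization. They were 447 after cyclic loess and 1307 by the most variable probe set. The shift of CTSV against CTSL was -0.18 after cyclic loess. With a replicate block 2 cathepsin genes were lower (CTSC and CTSV) and 6 related genes higher, where 1878 of all genes passed as lower and 1630 as higher. Correlations of deviations between same-numbered arrays were 0.26, 0.29 and -0.02. Replicates 1 and 2 correlated best with their own number, and replicate 3 did not. The labels give only a shared number, and whether same-numbered arrays were handled together was not tested. Signs that turned belonged to values that did not pass in the deposited data. After median centring CTSD was -0.0034, CTSS -0.053 and CTSZ -0.066 (212562_s_at -0.0072). After quantile normalization and cyclic loess CTSH was 0.10 and 0.079, CTSB 200838_at 0.10 and 0.074, CTSB 213275_x_at 0.12 and 0.093, and CTSC 225646_at 0.019 and 0.0039. With array weights CTSS was -0.027 over genes and -0.035 over probe sets, and CTSB 213275_x_at 0.014. The mean of probe sets gave -0.0036 for CTSB and -0.37 for CTSS, and the probe set with the widest interquartile range (the most variable) -0.19 and -0.47. Without 1 array CTSH ranged from -0.11 to 0.031, CTSK from -0.10 to 0.059, CTSS from -0.064 to 0.12, CTSZ from -0.061 to 0.048 (212562_s_at from -0.010 to 0.14) and CTSB 213275_x_at from -0.032 to 0.025. The cause of these changes was not tested.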
